A study of Homo sapiens with 12 samples.

Results

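The comparison was between unstressed TUSC3 KO cells and unstressed control cells of A549, a human lung adenocarcinoma line, both kept in DMSO, the solvent of the stress agent used elsewhere in the study. RNA was measured on the GeneChip Human Transcriptome Array 2.0, a one-colour array that gives 1 value per transcript cluster, on 3 arrays of TUSC3 KO cells and 3 arrays of control cells. These are 6 of the 12 arrays of the series, and the other 6 hold the same genotypes given tunicamycin (TM), a blocker of N-linked glycosylation, at 3 ug/ml for 16 h. Members were the 22411 genes that had a feature with a single symbol, each read from its brightest feature. The KO cells were made with a CRISPR/Cas9 plasmid, after which single GFP-positive cells were plated, and the labels call the controls wild-type cells. For these arrays the paper names a single numbered A549 KO line, beside A549 cells. With 1 KO line, effects of the genotype and of the clone cannot be told apart. Whether each array had a culture of its own is not stated in the labels. Without that, the p-values cover no more than technical spread between the arrays.

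TUSC3 is a subunit of the oligosaccharyltransferase (OST), the complex of the endoplasmic reticulum (ER) membrane that moves a preassembled oligosaccharide onto asparagines of newly made proteins. OST comes in forms built on either of the catalytic subunits STT3A and STT3B, and the STT3B form carries TUSC3 or its paralog MAGT1 as an oxidoreductase subunit. Receptors, adhesion molecules, matrix proteins and secreted enzymes of epithelial cells carry such glycans, and TM blocks the synthesis of the oligosaccharide itself.

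TUSC3 itself (chromosome 8, 15417188 to 15852091 in GRCh38.p14) had log2 values of 5.51, 5.50 and 5.57 in TUSC3 KO cells, against 7.16, 7.03 and 7.10 in control cells. The groups did not overlap (p = 0.1 in a two-sided exact permutation test, which can give no smaller p with 3 arrays a group), and the difference was -1.57 (SE 0.07, adjusted p = 4.3e-08, limma). An edited transcript can still bind probes, so this value says nothing of the protein. The paper checked the protein in its A549 KO cells by Western blot and immunofluorescence.

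Of the 22411 genes, 1475 were higher in TUSC3 KO cells (6.58%) and 1369 were lower (6.11%) at an adjusted p under 0.05 from limma, 12.7% together. Most of these differences were small. Of the 2844 genes called, 1444 (50.8%) differed by less than 0.25 on the log2 scale, 1025 by 0.25 to 0.5, 311 by 0.5 to 1 and 64 by more than 1. Among the 64, 22 were higher and 42 lower in KO cells. KO and control arrays did not overlap in 2837 of the 2844 genes called, nor in 5973 of all 22411 (26.7%). A lack of overlap in a called gene therefore adds little to its call. The arrays carry no call of signal over background. As a guide, the median of all features lay between 4.735 and 4.799 on the 12 arrays, and where a group mean fell below it the difference is a lower bound. That was so of the control mean for 2 of the 22 and of the KO mean for 18 of the 42. Same-group DMSO arrays correlated over genes at 0.9975 to 0.9985, and KO arrays with control arrays at 0.9944 to 0.9953; genes are not independent replicates. The summed level of 9 epithelial and A549 markers, given as a mean per array, was 10.55 to 10.61 in KO cells and 10.57 to 10.59 in control cells, with 2 of the 9 higher (KRT19 by 0.36 and EPCAM by 0.30) and 3 lower (AKR1B10, ALDH1A1 and NQO1, by -0.18, -0.16 and -0.09). Fibroblast markers (6 genes) averaged 4.57 to 4.67 in KO and 4.62 to 4.69 in control arrays, blood cell markers (6 genes) 4.76 to 4.79 in KO and 4.67 to 4.69 in control arrays, and endothelial markers (6 genes) 4.36 to 4.45 in KO and 4.35 to 4.48 in control arrays. No fibroblast, blood cell or endothelial marker passed the test, and 2, 4 and 3 of them had both group means under the feature median. In bulk RNA, fewer cells that express a gene and less RNA per cell cannot be told apart.

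**Figure D1:**
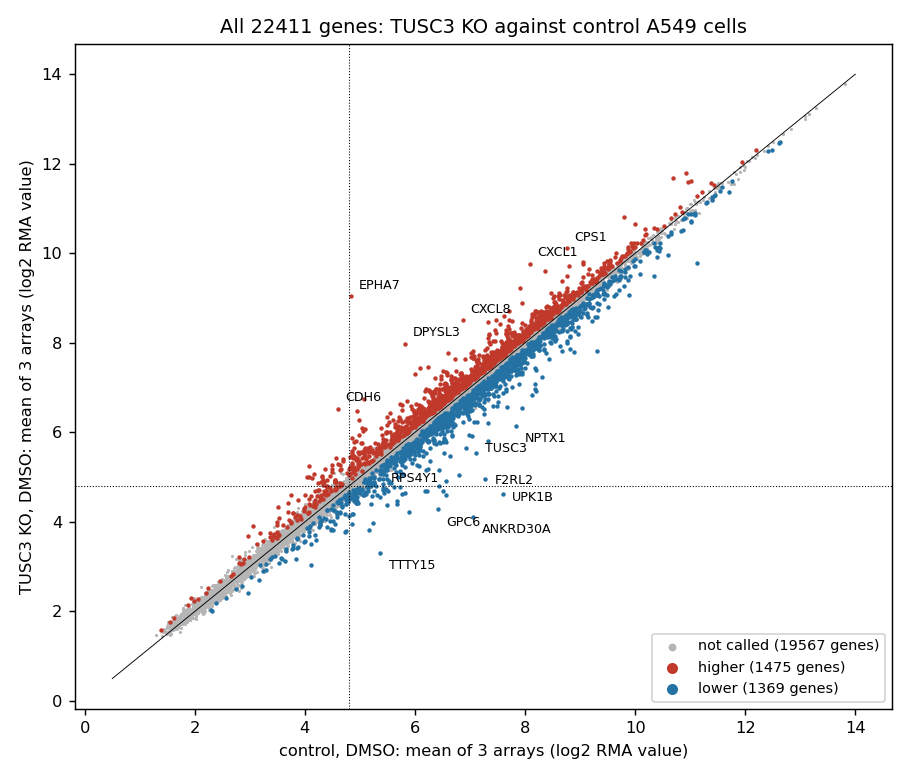
Mean log2 value of each gene tested in 3 TUSC3 KO arrays (vertical axis) against its mean in 3 control arrays (horizontal axis), all under DMSO, with dotted lines at the feature median. Points lie along the diagonal, with 1475 genes called higher, 1369 called lower, and EPHA7 far above and UPK1B far below it.

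Calls were unevenly spread over the chromosomes. Positions came from RefSeq (GRCh38.p14), and the percentages per chromosome cover 13059 protein-coding genes whose mean over the 12 arrays was above the feature median, of which 9.96% were higher and 8.25% lower in KO cells. On chromosome 2, 288 of 843 such genes (34.2%) were lower in TUSC3 KO cells and 32 were higher, with a median difference of -0.087, and 78.4% of them had a difference below 0. Elsewhere, apart from chromosome Y, 2.77% to 10.3% of the genes of a chromosome were lower. The shift was seen along all of chromosome 2. In each of its 20 windows of 10 Mb with at least 20 genes the median lay below 0 (-0.180 to -0.019), as it did in 49 of 197 such windows of the other chromosomes (-0.096 to 0.151). Relative to genes outside the regions named here, the mean of the chromosome 2 genes was -0.107, -0.107 and -0.100 in the 3 KO arrays, against 0.028, 0.005 and 0.025 in the 3 control arrays. Chromosome 2 was singled out from these same values, so the gap between the 2 sets of arrays restates the calls and adds no support to them. Under TM, in arrays of their own, 35.1% of the same genes were lower in KO cells, with a median difference of -0.104. The base under TM was 11.6% lower and 13.3% higher over all 13059 genes, with a median of -0.028. Counting every gene tested, chromosome 2 held 6.26% of the genes and 23.3% of the lower calls (319 of 1369), with 41 genes higher.

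The opposite was seen in the first 40 Mb of chromosome 9, a region picked after its values had been seen. Of its 130 genes in the same class, 59 (45.4%) were higher in TUSC3 KO cells and 4 lower, with a median of 0.147, whereas 9.16% of the 415 genes of the rest of the chromosome were higher, with a median of 0.010. Per array, the region lay at 0.108, 0.116 and 0.129 in KO cells, against -0.013, -0.043 and -0.001 in control cells. Under TM, 47.7% of these genes were higher and the median was 0.135, beside 13.3% and -0.028 over all 13059 genes under TM. RIGI, the cytosolic sensor of viral RNA (chromosome 9, 32455302 to 32526196), had values of 7.41, 7.43 and 7.53 in KO cells, against 6.28, 6.12 and 6.29 in control cells, a difference of 1.22 (SE 0.08, adjusted p = 8.2e-07, limma). POLR1E, a subunit of RNA polymerase I, was 0.54 higher and DNAJA1, a co-chaperone of HSP70, 0.34 higher.

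Of 61 chromosome Y genes tested, 14 were lower and 0 higher in TUSC3 KO cells, and 8 of the 9 protein-coding genes above the feature median were lower. DDX3Y, an RNA helicase, had values of 4.71, 4.57 and 4.54 in KO cells, against 6.59, 6.40 and 6.68 in control cells. RPS4Y1, a ribosomal protein gene, had 5.12, 5.01 and 5.04 in KO cells, against 6.76, 6.77 and 6.88 in control cells. In both, and in USP9Y and TTTY15, the groups did not overlap, and the KO means of DDX3Y, USP9Y and TTTY15 were below the feature median. Arrays measure RNA and no copy number was measured, so the part of gene dosage in these 3 regions was not tested. Without the 3 regions, 1370 genes were higher and 1030 lower of 20709, and the count of a gene list is also given without them where more than 1 of its calls lay there.

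**Figure D2:**
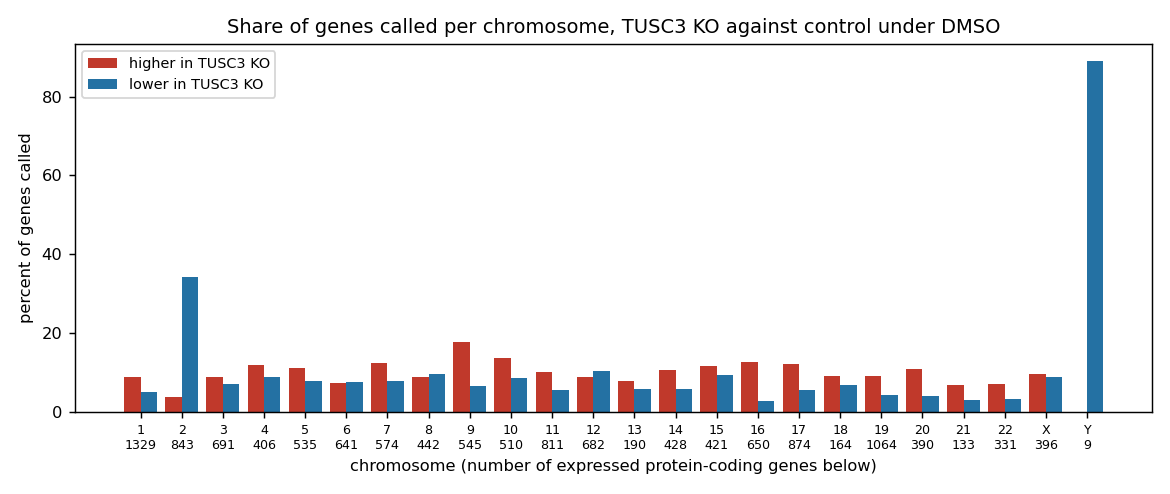
Percent of genes called higher and lower in TUSC3 KO cells on each chromosome, for protein-coding genes whose mean was above the feature median. Chromosome 2 stands out with 34.2% lower, chromosome Y with 88.9% lower of 9 genes, and chromosome 9 has the highest percent higher.

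**Figure D3:**
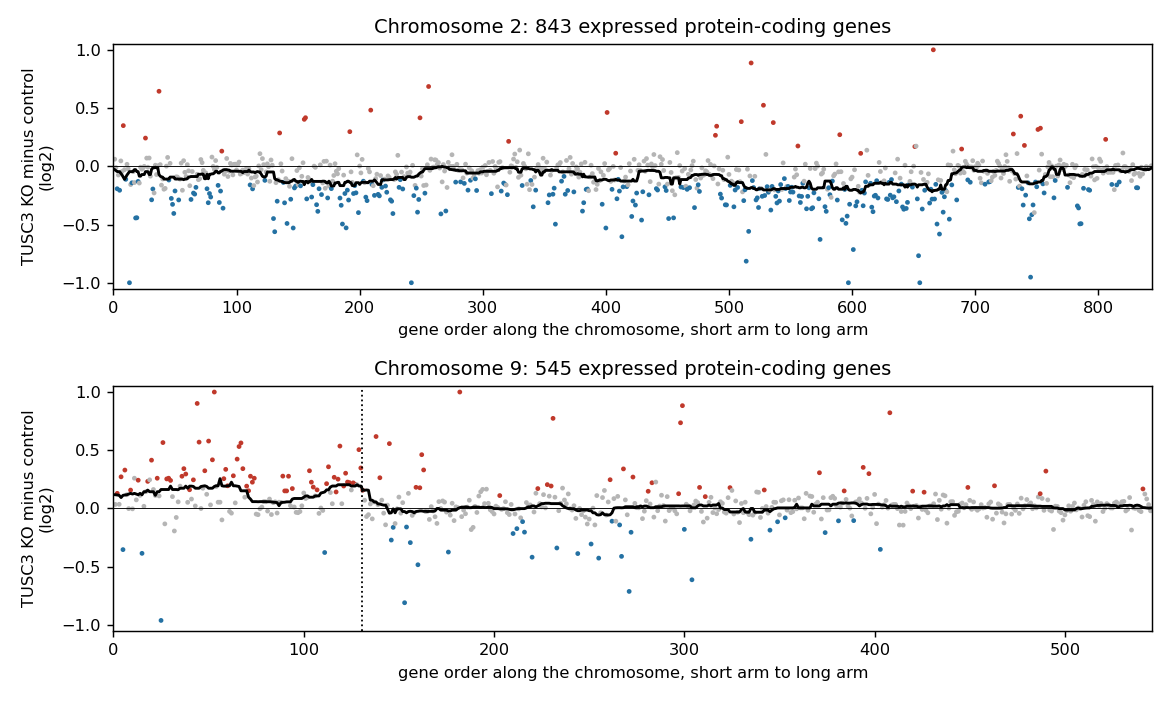
Difference of TUSC3 KO and control cells (log2) for the same genes in their order along chromosomes 2 and 9, red where called higher, blue where called lower and grey where not called, with differences beyond 1 in size drawn at 1. The line is the running median of 25 genes, and the dotted line on chromosome 9 is the position of 40 Mb, before which the running median lies above 0.

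The gene with the largest difference was EPHA7, a receptor tyrosine kinase that binds ephrins and guides growing axons (chromosome 6, 93240020 to 93419559). It had values of 9.0, 9.02 and 9.09 in TUSC3 KO cells, against 4.99, 4.72 and 4.82 in control cells, a difference of 4.19 (SE 0.07, adjusted p = 8.4e-11, limma) or 18.3-fold. In KO cells it stood well above the feature median, and in control cells it was close to it. DPYSL3, which binds tubulin and actin in growth cones (chromosome 5, 147390808 to 147510068), had 7.91, 8.03 and 8.01 in KO cells, against 5.83, 5.78 and 5.86 in control cells. CDH6, a classical cadherin of kidney and neural crest, had 6.53, 6.47 and 6.58 in KO cells, against 4.59, 4.60 and 4.60 in control cells, and as the control mean was below the feature median its difference of 1.93 is a lower bound. The groups did not overlap in these 3 adhesion and guidance genes, as the rule that picked the largest differences required.

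Neutrophil-attracting chemokines came next. CXCL1 had 9.72, 9.82 and 9.76 in TUSC3 KO cells, against 8.09, 8.06 and 8.11 in control cells. CXCL8, also called interleukin-8, had 8.42, 8.50 and 8.57 in KO cells, against 6.94, 6.89 and 6.81 in control cells. The differences were 1.68 and 1.62. ITIH2, a heavy chain that is linked to hyaluronan in the matrix, was 1.66 higher. EHF, an epithelial ETS factor, was 1.35 higher, SYT13, a synaptotagmin, 1.31 higher, and TMEM47, a membrane protein of cell junctions, 1.30 higher. CCAT1, a long noncoding RNA named from colon cancer, had 9.21, 9.22 and 9.25 in KO cells, against 8.02, 7.80 and 7.87 in control cells. CPS1, the mitochondrial enzyme that starts the urea cycle, had 10.10, 10.11 and 10.13 in KO cells, against 8.79, 8.75 and 8.78 in control cells. It lies on chromosome 2 (210477685 to 210679107), where most calls were lower, and CPS1-IT1, whose position (210617571 to 210619876) lies within that of CPS1, was 1.54 higher (SE 0.19), so that both features may read a shared transcript.

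Among the genes that were lower, UPK1B, a uroplakin of the tetraspanin family (chromosome 3, 119173598 to 119205143), had 4.71, 4.54 and 4.61 in TUSC3 KO cells, against 7.58, 7.53 and 7.68 in control cells. The KO mean was below the feature median, so the difference of -2.98 (SE 0.09, adjusted p = 2.3e-09, limma) is a lower bound of the fall. ANKRD30A, an ankyrin repeat protein known as a breast antigen, fell by at least 2.94 in the same sense. F2RL2, a receptor of the protease-activated family, had 4.81, 5.21 and 4.86 in KO cells, against 7.29, 7.25 and 7.29 in control cells. GPC6, a glypican that carries heparan sulfate at the cell surface, had 4.33, 4.14 and 4.38 in KO cells, against 6.29, 6.36 and 6.58 in control cells. CACNA2D1, an auxiliary subunit of calcium channels, fell by at least 1.81, NPTX1, a secreted pentraxin of synapses, fell by 1.70, ADAM23, a catalytically inactive ADAM on chromosome 2, fell by at least 1.64, and ADGRG2, an adhesion G protein-coupled receptor, fell by 1.64. TTTY15, DDX3Y, RPS4Y1 and USP9Y of chromosome Y complete the 12.

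TUSC3 and these 24 genes were also compared under TM, on the other 6 arrays. All 25 were called there in the direction they had under DMSO. A test of the interaction passed for 13 of the 25 (limma, adjusted p under 0.05). The difference was smaller under TM in 11 of the 13, among them CDH6 (0.79 under TM and 1.93 under DMSO) and ANKRD30A (-1.51 under TM and -2.94 under DMSO), and larger in 2, EHF (1.71 under TM and 1.35 under DMSO) and CPS1 (1.58 under TM and 1.34 under DMSO). The control mean of CDH6 was below the feature median under TM as well, so both its differences are lower bounds.

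**Figure D4:**
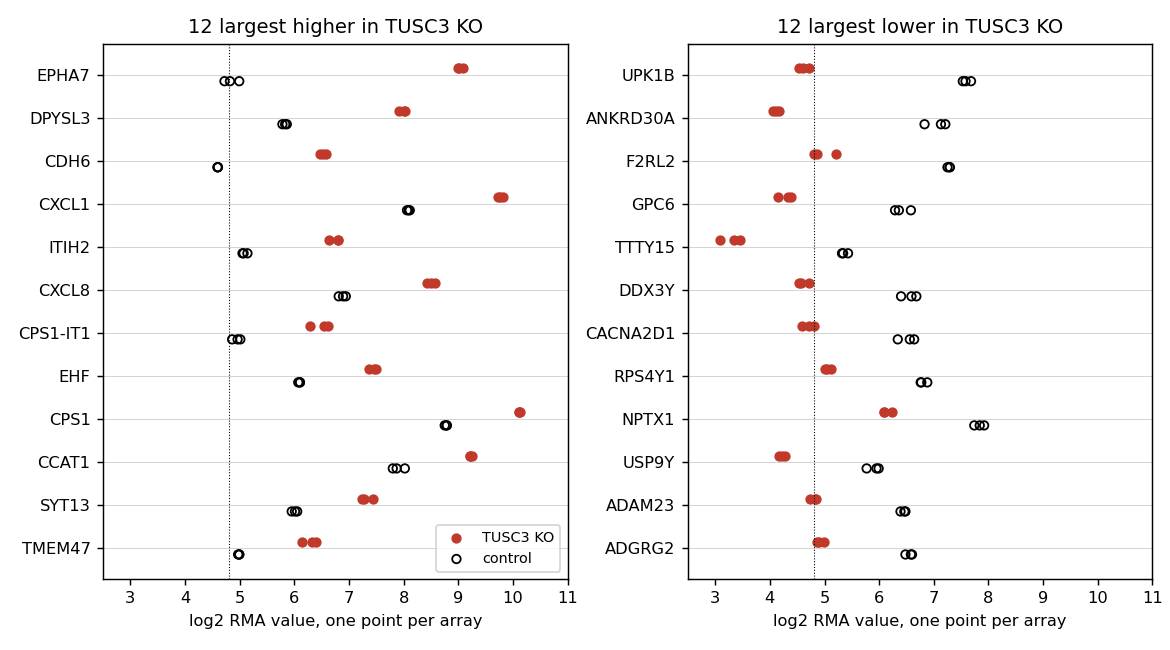
Log2 value in each TUSC3 KO array and each control array under DMSO, for the 12 genes with the largest differences in either direction, with a dotted line at the feature median. The rule that picked the 24 genes required KO and control points not to overlap. EPHA7 has the widest gap (9.0 to 9.09 in KO cells and 4.72 to 4.99 in control cells).

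Most of the interferon-stimulated genes tested were higher in TUSC3 KO cells. Interferons act through JAK kinases and STAT factors on a promoter element, the interferon-stimulated response element (ISRE), and epithelial cells use the induced proteins to block viral entry, translation and RNA. Of 39 such genes tested, 25 were higher (64.1%) and 0 lower, beside 6.58% higher and 6.11% lower among all genes. Among protein-coding genes above the feature median, the shares were 9.96% higher and 8.25% lower. These shares are the base for the counts of all lists that follow, several of which lie near them. Lists and their members were chosen with earlier results of these data known. A share above the base therefore describes a list and is no test of enrichment. The median difference of the interferon list was 0.389, beside 0.0086 over all genes. Outside the 3 chromosome regions the count was 23 of 36, with a median of 0.415. The level of several of them was low, and in 8 of the 39 both group means lay below the feature median.

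The promoters of 5 of the higher genes are shown because each holds the letters of the ISRE. Sequences are 60 bases from RefSeq (GRCh38.p14), written 5′ to 3′ on the gene's strand, with matches to GAAANNGAAA, or to TTTCNNTTTC for the other strand, in capitals.
IFI44, chr1:78649751-78649810, plus strand: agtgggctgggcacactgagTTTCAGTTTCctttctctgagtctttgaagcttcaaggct
GBP3, chr1:89022825-89022884, minus strand: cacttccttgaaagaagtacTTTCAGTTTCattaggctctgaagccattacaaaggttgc
IFITM3, chr11:320873-320932, minus strand: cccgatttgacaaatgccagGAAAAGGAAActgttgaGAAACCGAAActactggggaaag
SAMD9, chr7:93118076-93118135, minus strand: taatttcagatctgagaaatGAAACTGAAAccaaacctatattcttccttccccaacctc
IFIT1, chr10:89392487-89392546, plus strand: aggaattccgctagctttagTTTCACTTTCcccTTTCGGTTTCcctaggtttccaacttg

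Of the 25 higher genes, 19 had a promoter in the table (250 bases before to 50 after the start), and 14 of these (73.7%) held a match. So did 8 of the 12 members with a promoter that were not called (66.7%), beside 3.14% of the 15374 promoters of genes tested and 3.65% of all 27305. The share was thus high in the list whether or not a member was called. A match is a description of letters, not a bound site.

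IFITM2, which blocks viral fusion, had 10.86, 10.72 and 10.84 in TUSC3 KO cells, against 9.70, 9.84 and 9.85 in control cells, and its near-identical relative IFITM3 had 8.54, 8.38 and 8.55 in KO cells, against 7.75, 7.79 and 7.74 in control cells. The groups did not overlap in either, but probes may be shared between the paralogs. OASL, an oligoadenylate synthetase relative that binds RNA sensors, had 8.18, 8.18 and 8.22 in KO cells, against 7.31, 7.33 and 7.38 in control cells. IFIT1, which binds foreign RNA ends, had 5.28, 5.37 and 5.18 in KO cells, against 4.52, 4.66 and 4.73 in control cells. GBP3, a guanylate-binding GTPase, was 0.76 higher (SE 0.10, adjusted p = 0.00038, limma). IFI44 was 0.83 higher with both means below the feature median, and MX1, a dynamin-like antiviral GTPase, was 0.14 higher. ISG15, a ubiquitin-like modifier and a classical member of the list, had 7.05, 7.04 and 6.83 in KO cells, against 6.69, 6.83 and 6.64 in control cells, and did not pass the test (adjusted p = 0.0761, limma).

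Sensors and factors of the same system moved less uniformly, with 7 of 26 higher and 1 lower (5 higher and 1 lower of 22 outside the chromosome regions). IFNGR1, the receptor chain that binds interferon gamma, had 7.63, 7.57 and 7.71 in TUSC3 KO cells, against 6.95, 6.78 and 7.0 in control cells. IFNL1, a type III interferon of epithelium, had 7.19, 7.28 and 7.09 in KO cells, against 6.48, 6.51 and 6.46 in control cells, and IFI16, a DNA sensor, was at least 0.57 higher. JAK1, the kinase shared by interferon receptors, fell by 0.15, a call lost without KO replicate 1 or 3 or control replicate 1 or 3. IFNB1, which encodes interferon beta, had 3.69, 3.65 and 3.53 in KO cells, against 3.48, 3.16 and 3.20 in control cells, all under the feature median, and did not pass the test.

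Of 20 genes of class I antigen presentation, which load peptides on HLA molecules, 7 were higher and 0 lower, with a median of 0.106. With the Student t-test of the study's methods, adjusted over all genes, 1 of the list was higher. B2M, the light chain of every class I molecule, had 9.09, 9.04 and 9.07 in TUSC3 KO cells, against 8.70, 8.71 and 8.73 in control cells. PSMB8, an immunoproteasome subunit, was 0.25 higher, ERAP1, which trims peptides in the ER, 0.23 higher, and TAPBP, or tapasin, 0.16 higher. The call of ERAP1 was lost without KO replicate 2, KO replicate 3 or control replicate 2.

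NF-kappaB is the factor that drives inflammatory transcription from kappa-B sites. Of 36 inflammatory genes linked to it, 20 were higher and 0 lower, with a median of 0.202 (20 of 32 outside the chromosome regions). The higher members include RELA, NFKB1 and NFKB2, which encode subunits of the factor, so the count is not one of targets alone. The chemokines CXCL1, CXCL2, CXCL3, CXCL5 and CXCL8 lie together on chromosome 4, and their promoters are shown with matches to GGNNNTTCC in capitals.
CXCL1, chr4:73869295-73869354, plus strand: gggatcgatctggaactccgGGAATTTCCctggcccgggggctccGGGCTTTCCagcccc
CXCL2, chr4:74099233-74099292, minus strand: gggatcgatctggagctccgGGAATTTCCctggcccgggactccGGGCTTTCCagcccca
CXCL3, chr4:74038728-74038787, minus strand: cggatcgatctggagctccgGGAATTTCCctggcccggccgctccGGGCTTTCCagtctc
CXCL5, chr4:73998728-73998787, minus strand: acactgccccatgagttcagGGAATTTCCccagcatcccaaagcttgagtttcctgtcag
CXCL8, chr4:73740458-73740517, plus strand: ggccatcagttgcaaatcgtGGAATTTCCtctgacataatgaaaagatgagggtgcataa

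All 5 hold the same letters GGAATTTCC, and CXCL1, CXCL2 and CXCL3 are near-identical over the window, as their coding parts are, so that probes may be shared between these 3. On either strand, 14 of 18 higher members with a promoter (77.8%) held a match, 5 of 10 members not called (50%), 21.6% of the promoters of genes tested and 20.1% of all. CXCL2 had 8.60, 8.63 and 8.58 in TUSC3 KO cells, against 7.62, 7.62 and 7.62 in control cells. CXCL5 had 11.77, 11.80 and 11.82 in KO cells, against 10.94, 10.90 and 10.90 in control cells. CCL5, which attracts T cells, had 9.76, 9.67 and 9.72 in KO cells, against 8.76, 8.76 and 8.86 in control cells. Neither these nor CXCL3 (0.91 higher) had overlapping groups. Of the 10 CXCL genes tested on chromosome 4, 7 were higher and 0 lower. IL6, an acute phase cytokine, was 0.68 higher, TNFAIP3, the feedback enzyme A20, 0.76 higher, and ICAM1, a leukocyte adhesion receptor, 0.57 higher. NFKBIA, which holds NF-kappaB in the cytosol, had 8.87, 8.92 and 8.96 in KO cells, against 8.77, 8.78 and 8.83 in control cells, a difference of 0.12 that did not pass the test.

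Complement, coagulation and acute phase genes went both ways, with 7 of 32 higher and 8 lower. THBD, the thrombin receptor thrombomodulin, had 8.34, 8.46 and 8.60 in TUSC3 KO cells, against 7.30, 7.33 and 7.33 in control cells, and CFB, complement factor B, was 0.86 higher. CP, the copper carrier ceruloplasmin, had 6.83, 6.78 and 6.91 in KO cells, against 8.19, 8.0 and 8.19 in control cells. TFPI, an inhibitor of coagulation on chromosome 2, fell by 1.10, PROS1, the anticoagulant protein S, fell by 0.78, and FGB, the fibrinogen beta chain, fell by 0.69.

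**Figure D5:**
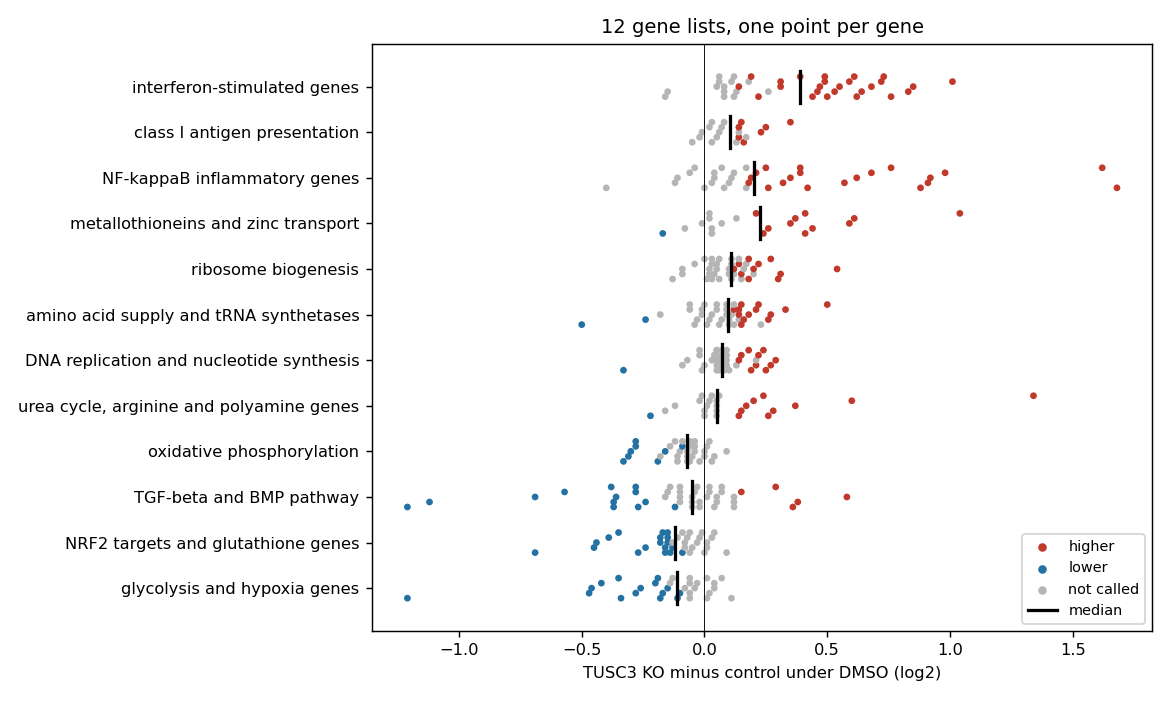
Log2 difference under DMSO, TUSC3 KO minus control, for each tested member of 12 gene lists, a point per gene red where called higher, blue where called lower and grey where not called, with a bar at the list's median. Interferon-stimulated, NF-kappaB and metallothionein lists have medians of 0.389, 0.202 and 0.227, and the glycolysis and NRF2 lists have medians of -0.114 and -0.120.

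Most of the metallothioneins tested, small cysteine-rich proteins that bind zinc and copper, were higher in TUSC3 KO cells. Together with zinc transporters, 11 of 20 genes were higher and 1 lower, with a median of 0.227, and 8 of the 9 MT1 and MT2 genes tested were higher. MT1F had 8.63, 8.35 and 8.57 in KO cells, against 7.44, 7.47 and 7.53 in control cells. MT2A, the most widely expressed of them, had 11.63, 11.61 and 11.60 in KO cells, against 11.03, 11.05 and 10.99 in control cells. MT1 genes differ by few bases, and probes may read several of them, so they are no independent observations. SLC39A8, a zinc and manganese importer, was 0.44 higher, MTF1, the zinc-sensing factor of metallothionein promoters, 0.24 higher, and SLC39A6, another importer, fell by 0.17, a call lost without KO replicate 1 or 2 or control replicate 1 or 3. MAGT1 is known for magnesium transport as well as for OST, and of 18 genes of magnesium transport 3 were higher (MAGT1, NIPAL2 and NIPA2) and 1 lower (CNNM2), a count that fell to 1 higher when only the 6 DMSO arrays were fitted.

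Within the glycosylation machinery, differences were small. STT3A, the catalytic subunit of the OST form that lacks TUSC3, had 10.22, 10.26 and 10.25 in TUSC3 KO cells, against 9.94, 9.89 and 9.93 in control cells, a difference of 0.32 (SE 0.02, adjusted p = 2.1e-06, limma). MAGT1, the paralog of TUSC3, had 8.81, 8.76 and 8.77 in KO cells, against 8.60, 8.46 and 8.56 in control cells, a difference of 0.24 (SE 0.03, adjusted p = 0.00067, limma). STT3B, the catalytic subunit that TUSC3 joins, had 9.70, 9.68 and 9.68 in KO cells, against 9.76, 9.63 and 9.74 in control cells, and did not pass the test. The groups were apart in the STT3A and MAGT1 values and overlapped in those of STT3B. KRTCAP2 and RPN1, 2 further subunits, were each 0.10 higher, and both calls were lost with only the 6 DMSO arrays in the fit and without any single KO array. Of 9 subunits tested, 4 were higher and TUSC3 alone was lower.

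Of 22 genes that build the dolichol-linked oligosaccharide, 4 were higher and 0 lower. DPAGT1, the enzyme that TM inhibits, had 7.22, 7.19 and 7.22 in TUSC3 KO cells, against 7.01, 7.03 and 7.0 in control cells. ALG3, a mannosyltransferase, was 0.22 higher, DHDDS, which makes the dolichol backbone, 0.23 higher, and MPDU1, needed to use dolichol-linked sugars, 0.13 higher, a call that most alternatives to the fit lost. Among 22 genes of ER glycan trimming and lectins, the 3 that were lower (ERLEC1, UGGT1 and MCFD2) all lie on chromosome 2, and CALR and CANX, the lectin chaperones calreticulin and calnexin, were 0.14 and 0.13 higher. The call of CANX was lost without any single KO array, without control replicate 2 or 3, and when arrays were centred on their median, the last of which left 1 of the list higher. Of 29 Golgi genes of N-glycan branching and capping, 2 were higher and 2 lower (6.9% each), near the 6.58% and 6.11% over all genes. FUT8, which adds core fucose, had 7.0, 7.04 and 7.10 in KO cells, against 6.70, 6.62 and 6.74 in control cells. ST3GAL1, a sialyltransferase, was 0.35 higher, and B4GALT4, a galactosyltransferase, fell by 0.38. Mucin-type O-glycosylation had 4 of 24 genes higher and 4 lower (3 and 3 of 21 outside the chromosome regions), and GALNT5, a starter enzyme, had 5.74, 5.77 and 5.92 in KO cells, against 4.91, 4.85 and 5.02 in control cells. Of 29 genes of proteoglycan synthesis, 7 were higher and 1 lower, and 3 were higher without KO replicate 2. They include the sulfotransferases UST (0.31), CHST11 (0.29) and CHST15 (0.25) and the hyaluronan synthase HAS2 (0.20, lost without KO replicate 2 or 3 or control replicate 1 or 2), while XYLT1, which starts the chains, fell by 0.28.

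Secreted airway mucins and their factors were among the genes that were higher. Of 33 alveolar and airway genes, 5 were higher and 2 lower, and 3 were higher without KO replicate 1. MUC5AC, a gel-forming mucin of goblet cells (chromosome 11, 1157953 to 1201138), had 9.46, 9.69 and 9.68 in TUSC3 KO cells, against 8.39, 8.35 and 8.39 in control cells. MUC5B, its neighbour (1223066 to 1262172), had 9.66, 9.82 and 9.77 in KO cells, against 9.11, 9.09 and 8.95 in control cells. The differences were 1.24 and 0.70, and no array of either group crossed into the other. MUC13, a membrane mucin, was 0.47 higher, and SPDEF, a goblet cell factor, 0.40 higher, while TFF1, a trefoil peptide secreted with mucins, fell by 0.46. Of 23 epithelial transcription and splicing factors, 5 were higher (EHF, SPDEF, SOX2, HNF4G and PITX1) and FOXA1 was 0.23 lower, while 3 were higher without KO replicate 1. The call of HNF4G was lost when any 1 of the 6 DMSO arrays was left out. PKP2, a desmosomal plaque protein, was 0.59 higher.

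Markers of the mesenchymal state gave no common direction, with 2 of 23 higher and 5 lower. CDH2, or N-cadherin, another such marker, was higher and is counted below with the cadherins. SNAI1, a repressor of epithelial genes, had 5.96, 6.13 and 6.02 in TUSC3 KO cells, against 6.56, 6.71 and 6.73 in control cells. ZEB1, another such repressor, fell by 0.31 and VIM, the filament vimentin, fell by 0.15. GLIPR1, a secreted CAP-family protein, had 7.81, 7.73 and 7.77 in KO cells, against 6.59, 6.45 and 6.76 in control cells. CDH1, or E-cadherin, had 9.07, 9.09 and 9.08 in KO cells, against 9.07, 9.07 and 9.08 in control cells.

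All 4 ID genes, which encode inhibitors of basic helix-loop-helix factors and are direct targets of BMP signalling, were lower in TUSC3 KO cells. ID1 had 8.53, 8.54 and 8.65 in KO cells, against 9.08, 9.12 and 9.22 in control cells. ID3 had 6.76, 6.80 and 6.88 in KO cells, against 7.41, 7.50 and 7.59 in control cells. ID2, on chromosome 2, fell by 1.12 and ID4 fell by at least 1.21. The groups were apart in all 4, and a pseudogene nearly identical to ID2 may share its probes. Over the TGF-beta and BMP pathway, 13 of 43 genes were lower and 5 higher, with a median of -0.048 (9 lower and 5 higher of 37 outside the chromosome regions). TGFB2, a ligand, had 7.88, 7.86 and 7.91 in KO cells, against 7.33, 7.24 and 7.34 in control cells, GREM1, a secreted BMP antagonist, was 0.38 higher, and SMAD3, the transducer of TGF-beta, fell by 0.28.

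In the Notch pathway, 4 of 25 genes were lower and 0 higher. NOTCH3, a receptor, had 6.58, 6.58 and 6.54 in TUSC3 KO cells, against 7.17, 7.29 and 7.19 in control cells, and HES1, the classical target, had 6.73, 6.69 and 6.84 in KO cells, against 7.28, 7.36 and 7.34 in control cells. ADAM10 and ADAM17, proteases that cut Notch and growth factor precursors, fell by 0.27 and by 0.44, ADAM17 being on chromosome 2. In the Wnt pathway, 3 of 35 were higher and 5 lower, and 3 were lower without KO replicate 1. DKK1, a secreted antagonist, had 9.07, 9.05 and 9.06 in KO cells, against 9.83, 9.90 and 9.94 in control cells, while RNF43, a ligase that removes Wnt receptors, was 0.76 higher and WLS, which carries Wnt proteins to the surface, 0.61 higher.

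Genes of growth factor signalling were split. TGFA, a ligand of the EGF receptor on chromosome 2, had 7.24, 7.27 and 7.32 in TUSC3 KO cells, against 6.57, 6.57 and 6.64 in control cells. EREG, the ligand epiregulin, was 0.52 higher and EGFR, their receptor, 0.24 higher, while ERRFI1, an intracellular inhibitor of the receptor, had 9.04, 9.13 and 9.12 in KO cells, against 9.68, 9.65 and 9.66 in control cells. Of 14 genes of this family 3 were higher and 3 lower, and 1 was lower without KO replicate 1. Among 31 ERK feedback and immediate early genes, 5 were higher and 5 lower. DUSP5 and DUSP1, phosphatases of MAP kinases, fell by 0.72 and by 0.68, whereas DUSP4, a relative of both, was 0.21 higher and JUN, an AP-1 subunit, 0.22 higher. Of 30 genes of FGF, VEGF and PDGF signalling 2 were higher (6.67%) and 3 lower (10%), near the shares over all genes. FGFR1, a receptor of fibroblast growth factors, fell by 0.56. Of 25 targets of YAP and TEAD factors 6 were higher and 5 lower, and 3 were lower when arrays were centred on their median. AXL, a receptor kinase, fell by 0.60 and NT5E, the ectoenzyme CD73, was 0.40 higher.

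Guidance molecules other than EPHA7 were mixed. Of 21 Eph receptors and ephrins, 5 were higher and 1 lower, EFNB2, a transmembrane ephrin, having 6.08, 5.94 and 6.0 in TUSC3 KO cells, against 5.36, 5.59 and 5.48 in control cells. EPHA2, the main Eph receptor of epithelia, was 0.32 higher. Of 45 semaphorins, slits, netrins and receptors, 4 were higher and 9 lower (3 higher and 8 lower of 42 outside the chromosome regions). SLIT3, a secreted ligand, had 7.05, 7.12 and 7.11 in KO cells, against 7.89, 7.93 and 7.86 in control cells, and ROBO1, a receptor of slits, had 6.88, 6.99 and 7.04 in KO cells, against 7.69, 7.62 and 7.67 in control cells. Of 33 neuronal cytoskeleton and synapse genes, 3 were higher and 6 lower, NEFL, a neurofilament subunit, falling by 1.27 while DPYSL3 was higher, and 4 of 31 were lower outside the chromosome regions. Of 37 cadherins, 3 were higher (8.11%) and 4 lower (10.8%), not far from the shares over all genes. CDH17, an intestinal cadherin, had 5.08, 5.21 and 5.16 in KO cells, against 6.60, 6.15 and 6.57 in control cells, while CDH2, or N-cadherin, was 0.58 higher.

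In the extracellular matrix, 7 of 54 genes were higher and 14 lower (12 lower of 49 outside the chromosome regions), with a median of -0.008. THBS1, the matricellular protein thrombospondin, had 8.82, 8.91 and 8.91 in TUSC3 KO cells, against 7.93, 7.93 and 7.99 in control cells, and TNC, or tenascin C, had 5.72, 5.77 and 5.84 in KO cells, against 4.89, 4.99 and 4.81 in control cells. TGFBI, an integrin-binding protein, had 9.52, 9.56 and 9.54 in KO cells, against 10.08, 10.06 and 10.12 in control cells. COL12A1, a fibril-associated collagen, fell by 0.58, COL11A1, a fibril collagen, fell by 0.53, and SPP1, or osteopontin, fell by 0.50. Of 51 extracellular proteases and inhibitors, 12 were higher and 4 lower. ADAM12, a sheddase, had 6.25, 6.47 and 6.32 in KO cells, against 5.51, 5.47 and 5.49 in control cells, MMP7, or matrilysin, was 0.74 higher, and SPINT1, an inhibitor of epithelial serine proteases, 0.48 higher.

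Of 31 glycolysis and hypoxia genes tested, 15 were lower in TUSC3 KO cells, 0 were higher and 16 did not pass the test, with a median of -0.114 (13 of 28 outside the chromosome regions). NDRG1, a stress gene induced by low oxygen, had 7.0, 6.96 and 6.95 in KO cells, against 8.13, 8.20 and 8.22 in control cells. BNIP3L, a receptor for the removal of mitochondria, had 8.10, 8.08 and 8.08 in KO cells, against 8.55, 8.56 and 8.55 in control cells. SLC2A3, a glucose transporter, fell by 0.46 and ADM, the peptide adrenomedullin, fell by 0.42. Enzymes moved less, LDHA, lactate dehydrogenase A, by -0.15 and ENO1, enolase, by -0.10. HIF1A, the factor that drives this programme, had 10.83, 10.76 and 10.83 in KO cells, against 10.77, 10.67 and 10.73 in control cells, and did not pass the test, nor did VEGFA (-0.06).

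NRF2 is the factor of the oxidative stress response, and A549 cells are known for a mutated KEAP1 that leaves it active. Of 36 targets and glutathione genes, 18 were lower and 0 higher, with a median of -0.120 (17 of 35 outside the chromosome regions). NFE2L2, which encodes NRF2 and lies on chromosome 2, had 8.11, 8.13 and 8.09 in TUSC3 KO cells, against 8.48, 8.47 and 8.53 in control cells. CES1, a carboxylesterase, had 5.78, 5.74 and 5.77 in KO cells, against 6.44, 6.37 and 6.56 in control cells. PIR, a nuclear protein and NRF2 target, fell by 0.44. AKR1B10, an aldo-keto reductase, differed by -0.18 and NQO1, a quinone reductase, by -0.09, a call that NQO1 lost without KO replicate 2 and when arrays were centred on their median. SLC7A11 (0.09) and GCLM (0.01), which supply cystine and glutathione, did not pass the test. Oxidative phosphorylation had 8 of 33 genes lower and 0 higher, 4 of them on chromosome 2, and 5 lower when arrays were centred on their median. COX7A2, a subunit of cytochrome oxidase, had 7.51, 7.50 and 7.58 in KO cells, against 7.77, 7.90 and 7.91 in control cells.

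Genes of arginine and polyamine metabolism were higher more often than lower, in 10 of 25 against 1. Besides CPS1, SLC7A2, an arginine transporter, had 7.60, 7.68 and 7.68 in TUSC3 KO cells, against 7.07, 6.99 and 7.10 in control cells, and SRM, or spermidine synthase, had 9.13, 9.14 and 9.12 in KO cells, against 8.69, 8.80 and 8.77 in control cells. SAT1, which breaks polyamines down, fell by 0.22, a call lost when any 1 of the 6 DMSO arrays was left out. Without KO replicate 2, 6 of the list were higher, and 8 of 23 were so outside the chromosome regions. Of 40 genes of amino acid supply and tRNA charging, 13 were higher and 2 lower, and 8 were higher when arrays were centred on their median. WARS1, the tryptophanyl-tRNA synthetase and also an interferon target, had 8.43, 8.45 and 8.46 in KO cells, against 7.97, 7.87 and 8.0 in control cells, and SLC1A5, a glutamine transporter, was 0.27 higher. Ribosome biogenesis had 11 of 38 genes higher and 0 lower (7 higher without KO replicate 3), with NOLC1, a nucleolar chaperone, at 8.56, 8.59 and 8.63 in KO cells, against 8.31, 8.24 and 8.33 in control cells. Of 29 ribosomal protein genes, 0 were higher and 3 lower, by -0.11 in RPS7 and -0.10 in RPL7 and RPS3, and 0 were lower when arrays were centred on their median.

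In the list of xenobiotic and retinoid enzymes, 6 of 36 were higher and 9 lower. CYP24A1, which breaks down active vitamin D and is its classical target, had 9.71, 9.80 and 9.81 in TUSC3 KO cells, against 11.16, 11.12 and 11.12 in control cells, a difference of -1.36 (SE 0.05, adjusted p = 1.1e-08, limma). RARB, a retinoic acid receptor and retinoid target, had 5.41, 5.47 and 5.52 in KO cells, against 6.61, 6.50 and 6.80 in control cells, and DHRS3, a retinal reductase, fell by 0.32. CYP4F11, a fatty acid hydroxylase, fell by 0.73, while CYP3A5, a drug-metabolizing enzyme, was 0.54 higher and RBP4, the retinol carrier, 0.51 higher. RDH10, a retinol dehydrogenase, was 0.26 higher. VDR, the vitamin D receptor, which was picked after its values had been seen, had 6.25, 6.35 and 6.38 in KO cells, against 5.83, 5.85 and 5.86 in control cells. ELOVL2, which lengthens polyunsaturated fatty acids, had 6.59, 6.60 and 6.58 in KO cells, against 7.51, 7.30 and 7.67 in control cells, and GABARAPL1, an autophagosome protein, fell by 0.74.

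Cell cycle genes showed small differences. Of 38 genes of DNA replication and nucleotide synthesis, 10 were higher and 1 lower, with a median of 0.068, the lower gene being MCM6, a subunit of the replicative helicase on chromosome 2. FEN1, a flap endonuclease, had 8.13, 8.21 and 8.16 in TUSC3 KO cells, against 7.86, 7.86 and 7.90 in control cells, and CCNE1, or cyclin E, was 0.25 higher. Of 39 genes of G2 phase and mitosis, 3 were higher (7.69%, near the share over all genes) and 6 lower (15.4%). The counts were 1 higher without KO replicate 3 and 2 lower without KO replicate 1. Outside the chromosome regions 4 of 37 were lower. BUB1, a spindle checkpoint kinase on chromosome 2, fell by 0.33.

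Of 19 desmosome and hemidesmosome genes 4 were higher and 1 lower (2 higher without KO replicate 2), and of 25 tight junction genes 4 were higher and 1 lower. CLDN2, a pore-forming claudin, had 7.68, 7.81 and 7.89 in TUSC3 KO cells, against 7.35, 7.47 and 7.42 in control cells, and JAM3, a junctional adhesion molecule, fell by at least 0.46. Of 27 uroplakins and tetraspanins, 1 was higher and 5 lower, and 3 were lower without control replicate 3. Besides UPK1B they include TSPAN7, a tetraspanin of neurons, with 4.97, 5.11 and 5.10 in KO cells, against 5.79, 5.77 and 5.78 in control cells, and UPK1A and UPK3B, other uroplakins, which fell by 0.20 and by 0.22. Of 24 cancer-testis genes, 2 were higher and 0 lower. PRAME, a tumour antigen, had 7.76, 7.77 and 7.81 in KO cells, against 7.60, 7.60 and 7.65 in control cells.

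Lists of protein turnover, chaperone and lipid genes held calls in both directions, apart from cholesterol synthesis. Of 25 lysosomal genes 2 were higher and 5 lower, CTSB, or cathepsin B, having 7.78, 7.78 and 7.78 in TUSC3 KO cells, against 8.01, 8.05 and 8.08 in control cells, and CTSD, or cathepsin D, being 0.22 higher. Of 32 autophagy genes 1 was higher and 6 lower (4 of 29 outside the chromosome regions). Of 29 proteasome genes 2 were higher (6.9%, near the share over all genes) and 1, PSMD14 on chromosome 2, was lower (3.45%). Of 29 chaperone genes, mostly cytosolic, 7 were higher and 6 lower, but 5 higher and 2 lower of 22 outside the chromosome regions. HSPE1 and HSPD1, the mitochondrial chaperonins, lie on chromosome 2 and fell by 0.27 and by 0.12, and BAG1, a cofactor of HSP70, lies on chromosome 9 and was 0.28 higher. Without control replicate 1, 3 chaperones were higher. Of 21 genes of cholesterol synthesis and uptake 3 were higher and 0 lower, and 0 were higher with only the 6 DMSO arrays in the fit. Of 30 genes of fatty acid and lipid synthesis 7 were higher and 3 lower, with ACSL5, an acyl-CoA synthetase, at 5.59, 5.41 and 5.59 in KO cells, against 4.86, 4.72 and 5.0 in control cells, and SCD, a desaturase, falling by 0.33. Among 21 CDK inhibitors and senescence-linked genes, 5 were higher and 5 lower, and 1 was higher without KO replicate 2 and 1 lower without KO replicate 1.

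Small noncoding RNAs, whose precursors and short transcripts the array covers, were lower more often than higher in some classes. Of 24 genes annotated as snRNA, a class that here holds spliceosomal RNAs, RN7SK and the SNAR genes, 9 were lower (37.5%) and 0 higher. SNAR-C3 and SNAR-C4, which are near-identical and not spliceosomal, are among the 9. The class's mean level per array was 7.86, 7.79 and 7.83 in TUSC3 KO cells, against 7.95, 8.10 and 8.09 in control cells. RNU6ATAC, of the minor spliceosome, had 6.20, 6.27 and 6.24 in KO cells, against 6.91, 6.72 and 6.98 in control cells. RNU4ATAC, its partner there, had 9.89, 9.88 and 9.97 in KO cells, against 10.25, 10.44 and 10.48 in control cells. Of 240 snoRNA genes, many of which guide the modification of ribosomal RNA, 34 were lower (14.2%) and 6 higher (2.5%). Their mean level per array, however, overlapped between KO cells (5.54, 5.58 and 5.60) and control cells (5.58, 5.62 and 5.70). The count lower was 20 without KO replicate 2. The SNORD114, SNORD115 and SNORD116 copies, which have no known ribosomal target, are counted among them. Of 31 SNORD114 copies 4 were higher and 0 lower, and of 31 SNORD115 copies 1 was higher and 0 lower. SNORD116, an imprinted cluster on chromosome 15 that was picked after its values had been seen, had 10 of 19 copies lower and 0 higher, with a median of -0.35. SNORD116-14 had 7.31, 7.29 and 7.34 in KO cells, against 7.92, 7.95 and 7.98 in control cells, and the copies are near-identical, so their values are not independent. RNA was extracted on columns, and whether recovery of short RNAs differed between the samples was not tested.

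Of 1041 miRNA genes, 15 were higher and 11 lower, below the shares over all genes, and the features read the hairpin or its host transcript, not the mature miRNA. Without control replicate 3, 6 were higher, and without KO replicate 2, 7 were lower. MIR21, a miRNA gene raised in many carcinomas, had 8.17, 8.14 and 7.93 in TUSC3 KO cells, against 8.49, 8.58 and 8.60 in control cells, a difference of -0.48 (SE 0.09, adjusted p = 0.00287, limma). Its mature sequence (RefSeq, GRCh38.p14, chr17:59841273-59841294, plus strand) is shown because it is the best known of the miRNA genes called, with the seed, bases 2 to 8, in capitals.
hsa-miR-21-5p: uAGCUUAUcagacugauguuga

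MIR520C, whose product the study examined as a regulator of TUSC3, had 2.92, 3.09 and 2.85 in TUSC3 KO cells, against 2.72, 2.85 and 2.75 in control cells. All lay far below the feature median and the groups overlapped (adjusted p = 0.143, limma). Of 1937 long noncoding RNA genes, 26 were higher (1.34%) and 24 lower (1.24%), below the 6.58% and 6.11% over all genes. MIR31HG, a host transcript in the region of chromosome 9, had 7.72, 7.68 and 7.66 in KO cells, against 7.01, 6.90 and 7.17 in control cells. In the long noncoding class 17 were higher without KO replicate 2 and 15 lower without KO replicate 3. Of 983 pseudogenes, 9 were higher (0.916%) and 66 lower (6.71%), the share lower being near the 6.11% over all genes. Without KO replicate 2, 31 were lower.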

How the data were processed

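RNA of 12 A549 samples (TUSC3 KO and control cells, DMSO or TM, 3 arrays a group) was measured on the Human Transcriptome Array 2.0. The deposited values are log2 levels that the authors normalized with RMA, with a version and genome build not given in the sources used here. The matrix covers 70523 features. RMA sets all arrays to a shared distribution, so levels are relative and a shift common to all genes is not seen. Features were named through the platform's annotation: 23781 had 1 symbol, 1543 several and 45199 none, and 306 symbols were updated through RefSeq tables. For the 528 symbols with several features the brightest was taken, giving 22411 genes. Depth has no meaning for arrays, and precision is set by the number of arrays.

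The contrast of KO and control cells was fitted with limma 3.58.1 (R 4.3.3, lmFit and eBayes with a variance trend) over all 12 arrays in 4 groups, which share an estimate of the spread, with Benjamini-Hochberg adjustment over all genes and a call at an adjusted p under 0.05. Python 3.11.15 with pandas 2.3.3, numpy 2.4.6 and matplotlib 3.10.9 was used for counts, motifs and plots. The scripts were tested on simulated data.

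Genes were named by a rule: TUSC3, the 12 largest differences each way among called genes whose higher mean was above the feature median and whose groups did not overlap, and per gene list up to 4 called members in the main direction and 2 in the other. Members and lists were chosen with earlier results of these data known. Genes outside the rule were picked after their values had been seen: STT3B, IFITM3, SAMD9, IFIT1, MX1, ISG15, IFNB1, CXCL3, CXCL5, IL6, TNFAIP3, ICAM1, NFKBIA, MTF1, PITX1, VIM, CDH1, SMAD3, LDHA, ENO1, HIF1A, VEGFA, SLC7A11, GCLM, VDR, UPK1A, HSPD1, RDH10 and the noncoding RNAs. Alternatives were other samples in the fit, a replicate block, no variance trend, robust moderation, renormalization, median centring, averaged features, a filter on dim genes, the methods' t-test, leaving out each array and leaving out 3 chromosome regions, the last added after seeing the data.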

Additional observations from a re-analysis of the deposited data

Results flagged for a closer look

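Of the 25 genes compared in both media, 13 had a difference between TUSC3 KO and control cells that itself differed between TM and DMSO by a test of the interaction (limma, adjusted over all genes). Among genes higher in KO cells, the difference under TM was smaller than under DMSO for EPHA7 (by -0.45, adjusted p = 0.0213), DPYSL3 (-0.60, adjusted p = 0.00029), CDH6 (-1.14, adjusted p = 6.2e-06), ITIH2 (-0.98, adjusted p = 6.4e-05) and SYT13 (-0.30, adjusted p = 0.0488). It was larger for EHF (0.36, adjusted p = 0.0023) and CPS1 (0.24, adjusted p = 0.0112). Among genes lower in KO cells, it was closer to 0 under TM for UPK1B (0.61, adjusted p = 0.00898), ANKRD30A (1.44, adjusted p = 0.00057), CACNA2D1 (0.41, adjusted p = 0.0429), NPTX1 (0.72, adjusted p = 0.014), ADAM23 (0.39, adjusted p = 0.00173) and ADGRG2 (0.84, adjusted p = 0.00026). The genes were picked for their size under DMSO, which alone favours a smaller difference in other arrays. For UPK1B, ANKRD30A, CACNA2D1 and ADAM23 the KO mean, and for CDH6 the control mean, was below the feature median under DMSO. Under TM, the control means of EPHA7 (4.28), ITIH2 (4.47) and CDH6 (4.07) were below it. So were the KO means of UPK1B (4.50) and CACNA2D1 (4.54) under TM. The TM differences of these genes are lower bounds, so whether they were truly smaller under TM cannot be told.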

How the results depend on the processing

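With the methods' t-test on the 6 DMSO arrays, 717 genes were higher and 707 lower after Benjamini-Hochberg adjustment, and 2367 were higher and 2037 lower at an unadjusted p under 0.05. After adjustment by that test 148 genes of chromosome 2 were lower and 34 of the first 40 Mb of chromosome 9 higher (64 with limma). Higher calls fell from 25 to 18 in the interferon list and from 20 to 16 in the NF-kappaB list. They fell from 7 to 1 in class I antigen presentation, from 13 to 3 in amino acid supply and from 11 to 3 in ribosome biogenesis. Among miRNA genes they fell from 15 to 2, and lower snoRNA calls fell from 34 to 8. Leaving out 1 array at a time gave 994 to 1390 genes higher and 971 to 1281 lower, 20 to 23 higher and 42 to 44 lower by over 1, 213 to 315 of chromosome 2 lower, 42 to 59 of the chromosome 9 region higher (42 without KO replicate 3), and -1.60 to -1.54 for TUSC3. With only the DMSO arrays 1304 were higher and 1264 lower, and with median centring 1099 and 1102. Of 267 named genes, 222 were called in the same direction under each alternative but the t-test, which lost 84; none reversed. Of 54 list medians 12 changed sign in some alternative, the largest of them 0.034 in size.

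No clear pairing by replicate number was seen in the DMSO arrays. With 3 arrays a group the check is weak and does not decide whether the numbers pair the arrays. Deviations from group means correlated at -0.02193, 0.01555 and 0.2406 between KO and control arrays of the same number and at -0.2858 to 0.2595 between different numbers. Only KO replicate 3 correlated best with its own number. The replicate block gave 1720 genes higher and 1566 lower, against 1475 and 1369 without it. With the block, 22 genes were higher and 42 lower by over 1. On chromosome 2, 363 were then lower, and 71 of the chromosome 9 region were higher. TUSC3 stayed at -1.57 (adjusted p = 2.3e-07, limma). Of the named genes, MPDU1 and NEK2 lost their calls under the block.

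Signal limits the rest. In 6805 genes both means were below the feature median, 188 of them called, and differences there are compressed. The median SE was 0.0521 on the log2 scale.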
